A study of Mus musculus with 6 samples.

Results

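The genes described here are the synaptic vesicle release machinery of the mouse nucleus accumbens, a ventral striatal region, measured with and without extra Gas5, a long noncoding RNA. Membership was set by gene symbol, as 43 named genes, and all 43 were found among the 54658 rows of each count table. The bulk tissue came from C57BL6 males 8 weeks old. In the Gas5 group (3 libraries, lettered A, B and C) the tissue had been injected with a herpes simplex virus p1005+ vector carrying Gas5 together with EGFP, and in the GFP group (3 libraries, A, B and C) with the same vector carrying EGFP alone. Both groups thus share the injection, the vector and EGFP. The sources used here do not give the promoter that drives Gas5, the share of cells that took up the vector or how many animals stand behind a library. Spread between libraries, which is what the p-values rest on, may therefore be partly technical. The series concerns Gas5 in cocaine action, and its labels name no drug treatment for these samples.

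A nerve terminal releases transmitter when a vesicle, held at the active zone by scaffold proteins, fuses with the plasma membrane. Fusion is driven by SNARE proteins on vesicle and target membrane, prepared by Munc13 and RIM proteins, restrained and assisted by complexins, and triggered when calcium binds synaptotagmins. Most accumbens neurons are GABAergic medium spiny neurons, and the region also receives glutamatergic axons from cortex, whose cell bodies and most of their RNA lie outside it. Transcripts in a piece of tissue report the cell bodies it contains, and in bulk tissue fewer cells of a type and less RNA per cell cannot be told apart.

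Libraries held between 32359052 and 56081575 counts. Gas5 itself stood at 22.6, 23.3 and 23.6 CPM in Gas5 A, B and C, against 18.6, 16.5 and 18.3 CPM in GFP A, B and C. CPM, the library-size-normalised read count, was scaled by TMM, which evens out library composition. All Gas5 libraries were higher, and the log2 fold change (Gas5 over GFP) was 0.38 (standard error 0.0633, edgeR adjusted p 0.0163). Medium spiny neuron markers were abundant in all libraries, among them Drd1 at 138 CPM ± 10.4 in the Gas5 group and 135 CPM ± 8.29 in the GFP group (SD, n = 3 each). Of the 14 medium spiny neuron markers edgeR called 0, with 2 at an unadjusted p under 0.05, beside 21.4% of all genes. DESeq2 called Pdyn alone, higher, and limma-voom called 0. The median log2 fold change of the 14 was 0.04.

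Most markers of cortical excitatory neurons moved with the groups. Of 13 listed, 12 were tested and 9 were called lower in the Gas5 libraries, beside 3.96% of all genes. The median log2 fold change was -2.45. Cux2 (-0.01) and Lamp5 (0.10) overlapped and were not called, nor was Fezf2 (-1.33), and Rorb was lower by less (-0.45). The summed level of the listed cortical markers lay between 232.9 and 315 CPM in the Gas5 libraries and between 517 and 686 CPM in the GFP libraries. Their mean log2(CPM + 0.5) came to 2.03, 2.65 and 2.81 in Gas5 A, B and C, against 3.70, 4.14 and 4.18 in GFP A, B and C, and the groups did not overlap. Slc17a7, which loads glutamate into vesicles of cortical neurons, had 5.75, 25.2 and 42.5 CPM in Gas5 A, B and C, against 153, 217 and 247 CPM in GFP A, B and C. Neurod1 was at 0 in all 6 libraries, but it lies wholly within another listed gene, and reads in such overlaps were not counted. Of 10 general neuron markers 8 were tested and Elavl4 alone was called, lower, and the median was -0.13. Tubb3 and Nefl were at 0 and, like Neurod1, lie within other genes. Oligodendrocyte markers summed to between 1682 and 2110 CPM in the Gas5 libraries and between 2157 and 2335 CPM in the GFP libraries. Of these 10, 1 was called, lower, and all 10 had a negative log2 fold change, as had 45.8% of all genes. Their median was -0.24, and 6 were lower without overlap, as 13.9% of all genes were. Microglia markers summed to between 305 and 333 CPM in Gas5 tissue and between 261 and 295 CPM in GFP tissue. Of 9 tested, 7 were higher without overlap, as 13.8% of all genes were. Of these 9, edgeR called 0, with 6 at an unadjusted p under 0.05, beside 21.4% of all genes. DESeq2 called C1qa and Aif1 higher, and limma-voom called C1qa higher. Among all 17563 genes DESeq2 called 495 higher and limma-voom 216. Of 4 further lists, each had 1 or 2 calls by edgeR. Aqp4 was higher among 9 astrocyte markers tested (log2 fold change 0.38), Rsph1 higher among 3 ependymal markers (0.86), Flt1 lower among 8 endothelial markers (-0.20), and among 10 interneuron markers Vip was lower (-1.47) and Gad2 higher (0.31). Summed levels did not overlap for ependymal markers, between 7.43 and 8.91 CPM in Gas5 tissue and between 5.26 and 6.09 CPM in GFP tissue, or for endothelial markers, between 218 and 232.5 CPM in Gas5 tissue and between 239 and 250.4 CPM in GFP tissue. Those of astrocyte and interneuron markers overlapped. The part of these lists in the changes below was not tested.

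**Figure D1:**
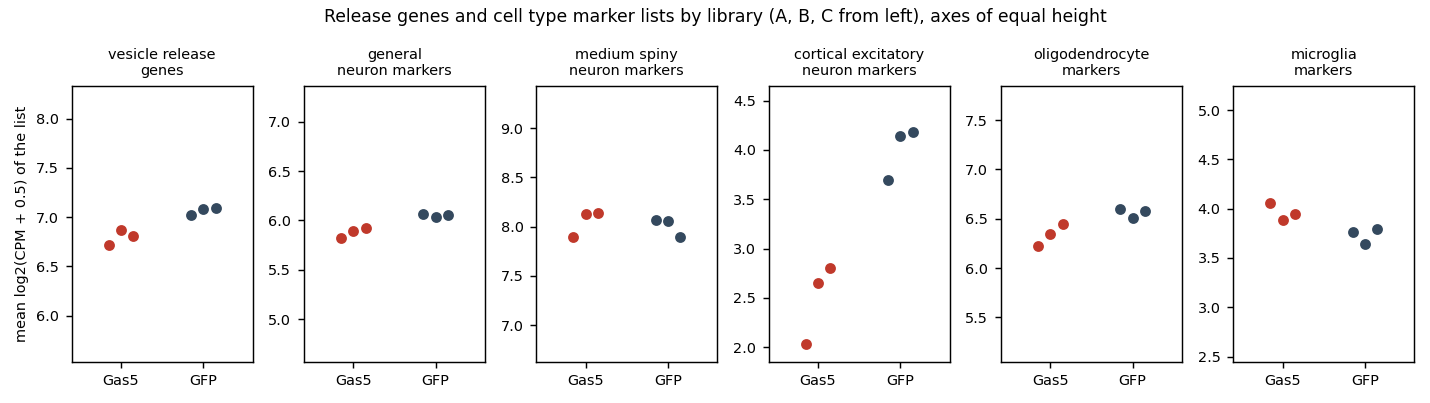
Each panel plots the mean log2(CPM + 0.5) of a gene list in each library, with Gas5 libraries A, B and C at left and GFP libraries at right, on axes of equal height. The release genes separate the groups by less than the cortical markers, which run between 2.03 and 2.81 in the Gas5 libraries and between 3.70 and 4.18 in the GFP libraries, whereas the medium spiny neuron markers overlap. General neuron and oligodendrocyte markers are lower in the Gas5 libraries without overlap, and microglia markers are higher without overlap.

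Of the 43 release genes, 13 were lower in the Gas5 libraries, 1 was higher and 29 did not pass the test. All 43 passed the expression filter, and edgeR called 13 lower (30.2%) and 1 higher at an adjusted p of 0.05. Among all 17563 genes tested 5.44% were called, 3.96% lower and 1.48% higher. Among the 9260 genes with a mean of at least 10 CPM, which 42 of the members reach, 5.38% were lower and 1.73% higher. The median log2 fold change of the members was -0.25, beside 0.02 over all genes tested, and 34 of 43 had a negative value, as had 45.8% of all genes. In 27 members all 3 Gas5 libraries lay below all 3 GFP libraries, as in 13.9% of all genes, and in 3 members all lay above, as in 13.8%. The sizes were modest, with folds between 1.175 and 2.24 among the 13 lower genes. A further 5 members had adjusted p between 0.05 and 0.06, and 28 of 43 had an unadjusted p under 0.05, against 21.4% of all genes.

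The mean log2(CPM + 0.5) over the 43 members came to 6.72, 6.87 and 6.81 in Gas5 A, B and C, against 7.03, 7.08 and 7.09 in GFP A, B and C. Gas5 A was the lowest Gas5 library for 31 of the 43, and the share of all genes lowest there was not counted. Gas5 A also had the lowest Gas5 mean for cortical, general neuron, medium spiny neuron, interneuron, oligodendrocyte and endothelial markers. It had the highest for astrocyte, microglia and ependymal markers. Without GFP B or GFP C fewer genes of any kind were called lower, 111 of 17909 and 101 of 17873 tested. With all 6 libraries the count was 695 of 17563. The members' median log2 fold change was -0.24 in both of these fits. The count of lower members was 4 without GFP B and 4 without GFP C, in both cases Syt17, Rph3a, Stx1a and Unc13b. These 4 were lower under all 15 alternatives, and without Gas5 A, B, C or GFP A the count lay between 10 and 15.

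**Figure D2:**
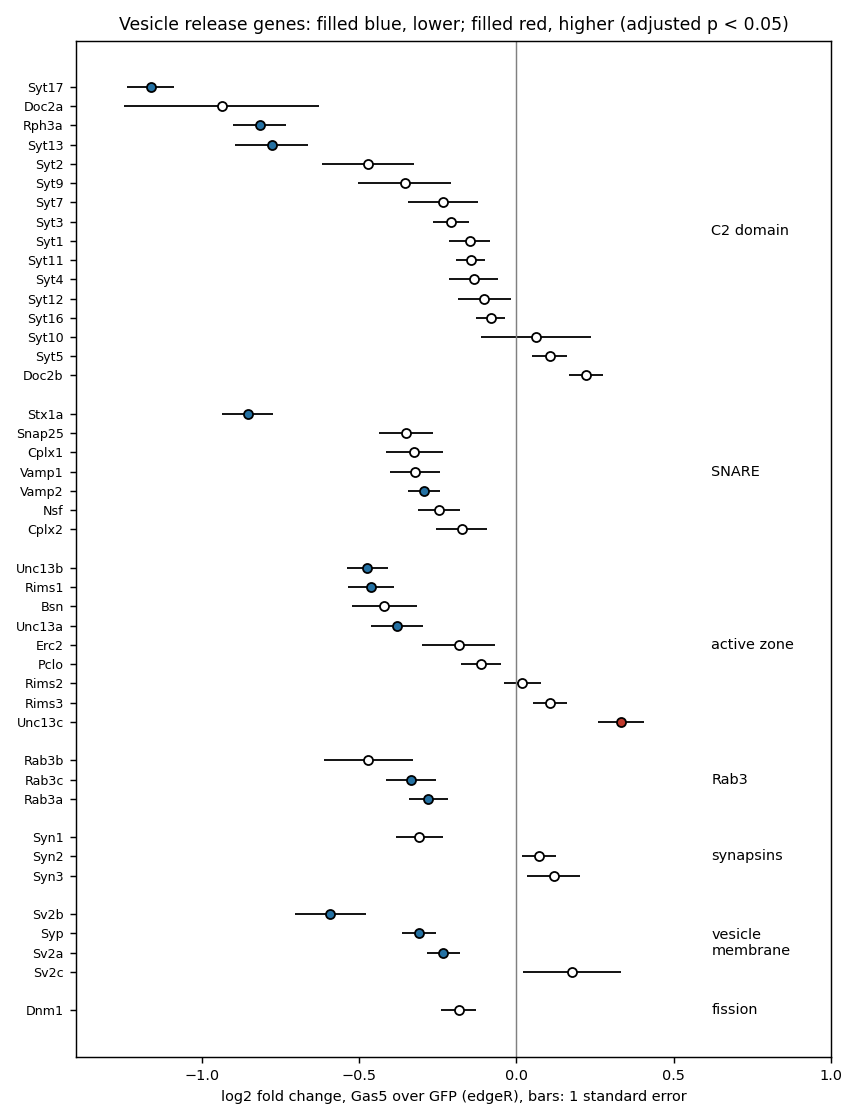
Points give the edgeR log2 fold change, Gas5 over GFP, of each of the 43 release genes, grouped by role, with bars of 1 standard error. Blue points are the 13 genes called lower and the red point is Unc13c, called higher; open points did not pass the adjusted p threshold of 0.05.

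The C2 domain group holds the synaptotagmins with Doc2a, Doc2b and Rph3a, proteins that carry paired C2 domains, many of which bind calcium and membrane. Syt17, Rph3a and Syt13 were called lower and none of the 16 was called higher, beside 3.96% and 1.48% of all genes. The group median log2 fold change was -0.18. Syt17, an atypical synaptotagmin without a transmembrane segment, had 7.38, 7.93 and 7.54 CPM in Gas5 A, B and C, against 16.2, 16.8 and 18.4 CPM in GFP A, B and C. The groups were far apart, and Syt17 was 2.24-fold lower, the largest fold among the members called (log2 fold change -1.16, standard error 0.0753, edgeR adjusted p 0.00279). Rph3a encodes rabphilin, a partner of Rab3 on vesicles, and had 70.8, 80.9 and 86.7 CPM in Gas5 A, B and C, against 129, 140.3 and 151 CPM in GFP A, B and C. Every Gas5 library lay below every GFP library, 1.76-fold lower in the mean (log2 fold change -0.82, standard error 0.0844, edgeR adjusted p 0.00473). Syt13, which encodes a synaptotagmin that does not bind calcium, had 37.7, 29.2 and 31.4 CPM in Gas5 A, B and C, against 48.5, 57.3 and 63.1 CPM in GFP A, B and C. Again no library overlapped, and it was 1.715-fold lower (log2 fold change -0.78, standard error 0.116, edgeR adjusted p 0.0115). Dropping GFP B or GFP C gave an adjusted p of 0.0606 or 0.0577. Cortical markers, at a mean log2(CPM + 0.5) between 2.03 and 2.81 in Gas5 tissue and between 3.70 and 4.18 in GFP tissue, were lower as well. So were the means of general neuron and oligodendrocyte markers, and the part of these lists in the decreases was not tested.

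The sensors that trigger fast release did not pass the test. Syt1, the main calcium sensor for synchronous release in forebrain, had 1949, 1954 and 2113 CPM in Gas5 A, B and C, against 2208, 2261 and 2201 CPM in GFP A, B and C. All Gas5 libraries were below the GFP libraries, but the difference did not pass the test (log2 fold change -0.15, standard error 0.0656, edgeR adjusted p 0.236). Syt2, its counterpart at many brainstem and inhibitory terminals, had 21.4, 33.6 and 31.9 CPM in Gas5 A, B and C, against 39.4, 38.5 and 42.7 CPM in GFP A, B and C. The groups did not overlap, and the test was missed too (log2 fold change -0.47, standard error 0.146, edgeR adjusted p 0.105). Syt7, a high-affinity sensor for asynchronous release, had 193, 274 and 227 CPM in Gas5 A, B and C, against 260.0, 275 and 281 CPM in GFP A, B and C, and Gas5 B lay among the GFP libraries (adjusted p 0.270). Syt3 had a log2 fold change of -0.21 and Syt9 of -0.36, with adjusted p of 0.0785 and 0.207.

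The most abundant members of this group per kb of gene span were Syt11 and Syt5. Syt11, a synaptotagmin that does not bind calcium in the usual way, had 289.5, 295 and 304 CPM in Gas5 A, B and C, against 328, 328 and 327 CPM in GFP A, B and C. Its GFP libraries were nearly equal and all 3 Gas5 libraries were lower, by 1.11-fold, short of the threshold (log2 fold change -0.15, standard error 0.0453, edgeR adjusted p 0.106). Syt5 had 56.6, 54.1 and 54.6 CPM in Gas5 A, B and C, against 54.8, 50.5 and 48.1 CPM in GFP A, B and C, and the groups overlapped (log2 fold change 0.11, standard error 0.0558, edgeR adjusted p 0.317). Among the others, Syt4, Syt12 and Syt16 had log2 fold changes of -0.14, -0.10 and -0.08, and Syt10 one of 0.06, with adjusted p between 0.349 and 0.873. Syt4 shares 73.9% of its span with another listed gene, so it is measured on the remainder alone.

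The Doc2 genes encode soluble calcium sensors with a role in spontaneous release, and their values pointed in opposite directions. Doc2b had 85.7, 88.2 and 89.3 CPM in Gas5 A, B and C, against 79.1, 76.3 and 70.1 CPM in GFP A, B and C. Each Gas5 library was above each GFP library, and the test was missed narrowly (log2 fold change 0.22, standard error 0.0534, edgeR adjusted p 0.0505). Doc2a, the member of lowest CPM, had 1.28, 1.29 and 0.516 CPM in Gas5 A, B and C, against 1.75, 1.87 and 2.39 CPM in GFP A, B and C. Its Gas5 libraries were all lower, with a wide error (log2 fold change -0.94, standard error 0.310, edgeR adjusted p 0.125), and 33.0% of its span is shared with another gene.

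All 7 members of the SNARE group had negative log2 fold changes and no overlap between the groups, with a median of -0.32, and Stx1a and Vamp2 passed the test. Of all genes, 45.8% had a negative value, 13.9% were lower without overlap and 3.96% were called lower. Stx1a encodes a syntaxin of the presynaptic plasma membrane and had 20.1, 20.3 and 20.1 CPM in Gas5 A, B and C, against 31.9, 38.2 and 39.6 CPM in GFP A, B and C. The Gas5 libraries were nearly equal to one another and well under the lowest GFP library, 1.81-fold lower in the mean (log2 fold change -0.86, standard error 0.0818, edgeR adjusted p 0.00473). Vamp2, synaptobrevin, the SNARE of the vesicle membrane, had 195, 206 and 215 CPM in Gas5 A, B and C, against 248, 257 and 252 CPM in GFP A, B and C. The decrease was small, 1.23-fold, but steady across libraries (log2 fold change -0.29, standard error 0.0511, edgeR adjusted p 0.0184), and the adjusted p was 0.101 when GFP B was dropped and 0.0957 when GFP C was. The cortical marker mean, from 2.03 up to 2.81 in Gas5 tissue and from 3.70 up to 4.18 in GFP tissue, moved with this group. The means of general neuron and oligodendrocyte markers were lower too, and the part of these lists was not tested.

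Snap25, the third core SNARE and also of the plasma membrane, had 545, 683 and 614 CPM in Gas5 A, B and C, against 743, 777 and 830.2 CPM in GFP A, B and C. The groups stood apart, but the adjusted p was just over the threshold (log2 fold change -0.35, standard error 0.0867, edgeR adjusted p 0.0551), and DESeq2 called it. Vamp1, a second vesicle SNARE, had 25.5, 29.2 and 30.0 CPM in Gas5 A, B and C, against 38.3, 32.7 and 34.8 CPM in GFP A, B and C and an adjusted p of 0.0563, with 40.5% of its span shared with other genes. Cplx1 and Cplx2 encode complexins, small proteins that clamp and promote fusion. Cplx1 had 128, 142 and 165 CPM in Gas5 A, B and C, against 191, 172 and 182 CPM in GFP A, B and C (adjusted p 0.0768). Cplx2, among the highest members per kb of span, had 512, 613 and 609 CPM in Gas5 A, B and C, against 639, 695 and 623 CPM in GFP A, B and C (adjusted p 0.263). Gas5 A was the lowest library for both complexins. Nsf, the ATPase that takes SNARE complexes apart after fusion, had 339.5, 403 and 376 CPM in Gas5 A, B and C, against 432, 447 and 448 CPM in GFP A, B and C (adjusted p 0.0721).

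The promoter of Stx1a is given because this gene carries the largest decrease of the SNARE group. Sequences are from RefSeq on GRCm38.p6, run 5′ to 3′ on the gene's own strand from 250 bases before the annotated start to 50 bases after it. Capitals mark GGGCGG or its reverse CCGCCC, the GC box bound by Sp factors.

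Stx1a, chr5:135023232-135023531, plus strand: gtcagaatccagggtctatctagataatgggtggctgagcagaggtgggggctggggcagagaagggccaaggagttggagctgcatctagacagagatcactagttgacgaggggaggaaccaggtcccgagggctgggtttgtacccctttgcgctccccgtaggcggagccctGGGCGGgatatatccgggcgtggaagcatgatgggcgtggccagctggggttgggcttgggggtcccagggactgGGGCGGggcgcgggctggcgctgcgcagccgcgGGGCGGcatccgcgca

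GGGCGG was found, on either strand, in 26 of the 31 members with an entry and in 27 of their 40 promoters (67.5%), against 35.7% of all 32851 promoters in the table. All 10 of the lower members that have an entry hold it in at least 1 promoter, and so does Unc13c, the higher one. Sv2b, Rph3a and Rab3a, among these 10, have several promoters and do not hold it in all. The share of all genes with it in at least 1 promoter was not counted. A match is a description of the letters and not evidence of binding.

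Active zone and priming genes held changes in both directions. Unc13b, Rims1 and Unc13a fell, Unc13c rose, and the median log2 fold change of the 9 was -0.18. Over all genes 3.96% were called lower and 1.48% higher. The Unc13 genes encode Munc13 proteins, which prime docked vesicles for fusion, with Munc13-1 from Unc13a dominant in forebrain and Munc13-3 from Unc13c best known from cerebellum. Unc13a had 204, 255 and 230.4 CPM in Gas5 A, B and C, against 282, 299.7 and 316 CPM in GFP A, B and C. The decrease was 1.30-fold (log2 fold change -0.38, standard error 0.0830, edgeR adjusted p 0.0381) and was not called when Gas5 C (adjusted p 0.0761), GFP B (0.143) or GFP C (0.157) was dropped. Unc13b had 46.4, 45.1 and 47.9 CPM in Gas5 A, B and C, against 61.2, 61.4 and 71.3 CPM in GFP A, B and C. Its Gas5 libraries were tightly grouped under the GFP libraries, 1.39-fold lower (log2 fold change -0.47, standard error 0.0658, edgeR adjusted p 0.0100). Unc13c had 467, 529 and 439.6 CPM in Gas5 A, B and C, against 394, 380.1 and 366 CPM in GFP A, B and C. All Gas5 libraries were above all GFP libraries, 1.26-fold higher (log2 fold change 0.33, standard error 0.0736, edgeR adjusted p 0.0398), but it was not called when Gas5 A (adjusted p 0.0513), Gas5 B (0.05002), GFP A (0.0649), GFP B (0.157) or GFP C (0.167) was dropped. Cortical markers, 2.81 or less in Gas5 tissue and 3.70 or more in GFP tissue on the mean log2(CPM + 0.5) scale, moved with the 3 decreases. General neuron and oligodendrocyte markers were lower on this scale too, and the part of these lists was not tested.

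The ratio of one paralog to another within a library does not depend on how libraries are scaled. The ratio of Unc13c to Unc13a CPM came to 2.29, 2.08 and 1.91 in Gas5 A, B and C, against 1.395, 1.27 and 1.16 in GFP A, B and C. It was higher in every Gas5 library, by 0.71 on the log2 scale, with an exact permutation p of 0.1, two-sided, the smallest that 3 against 3 libraries allow. For Unc13c to Unc13b the difference was 0.80 with the same p, whereas for Unc13a to Unc13b the ratio came to 4.39, 5.65 and 4.81 in Gas5 A, B and C, against 4.61, 4.89 and 4.43 in GFP A, B and C, and the groups overlapped (difference 0.09, exact permutation p = 0.7). In all, 18 such ratios over 8 families were computed, after the fold changes had been seen, and the smallest adjusted p was 0.2.

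**Figure D3:**
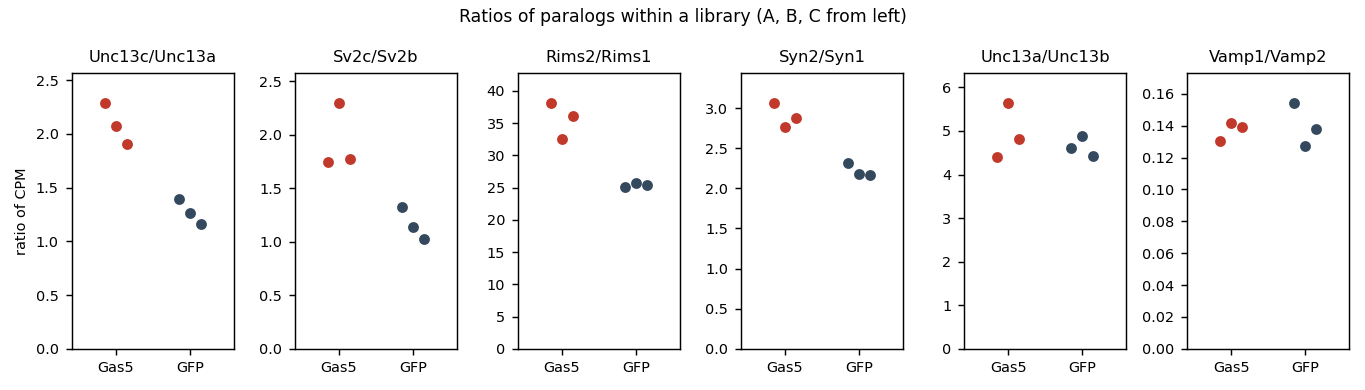
Ratios of CPM between paralogs in each library, Gas5 libraries A, B and C at left and GFP libraries at right in every panel, on axes from 0. Unc13c/Unc13a, Sv2c/Sv2b, Rims2/Rims1 and Syn2/Syn1 do not overlap between the groups, whereas Unc13a/Unc13b and Vamp1/Vamp2 do.

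The promoters of the Unc13 genes are set side by side because these paralogs changed in opposite directions. Capitals mark GGGCGG or CCGCCC as above and, in Unc13a, GGTGCTGAA, the reverse of TTCAGCACC, which is the left part of the element bound by the repressor REST.

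Unc13a, chr8:71671708-71672007, minus strand: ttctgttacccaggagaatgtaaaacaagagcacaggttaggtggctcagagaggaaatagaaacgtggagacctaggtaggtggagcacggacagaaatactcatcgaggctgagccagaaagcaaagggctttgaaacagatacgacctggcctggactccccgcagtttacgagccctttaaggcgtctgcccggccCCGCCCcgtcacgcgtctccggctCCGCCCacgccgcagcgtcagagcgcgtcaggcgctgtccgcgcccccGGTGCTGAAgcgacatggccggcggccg

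Unc13b, chr4:43058703-43059002, plus strand: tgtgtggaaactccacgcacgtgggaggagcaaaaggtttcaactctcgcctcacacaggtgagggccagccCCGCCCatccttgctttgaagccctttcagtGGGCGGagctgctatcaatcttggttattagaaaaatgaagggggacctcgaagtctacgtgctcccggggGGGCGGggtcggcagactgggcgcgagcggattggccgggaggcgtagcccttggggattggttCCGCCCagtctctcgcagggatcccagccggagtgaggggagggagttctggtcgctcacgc

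Unc13c, chr9:73968988-73969287, minus strand: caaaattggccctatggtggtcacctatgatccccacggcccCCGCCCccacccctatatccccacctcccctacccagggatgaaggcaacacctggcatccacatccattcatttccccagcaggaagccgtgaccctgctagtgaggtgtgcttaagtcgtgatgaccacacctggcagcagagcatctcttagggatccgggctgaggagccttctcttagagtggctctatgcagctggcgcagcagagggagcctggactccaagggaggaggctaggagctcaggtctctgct

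TTCAGCACC, sought on both strands and not overlapping the GC box, was in the promoters of Unc13a and Syn1 alone among the 31 members with an entry, 2 of 40 promoters (5.0%), against 0.371% of all promoters. Unc13b held the GC box 4 times, Unc13a 2 times and Unc13c 1 time.

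RIM proteins tether vesicles and calcium channels at the release site. Rims1 had 20.04, 24.0 and 23.2 CPM in Gas5 A, B and C, against 31.9, 30.9 and 29.8 CPM in GFP A, B and C. It was 1.38-fold lower without overlap (log2 fold change -0.46, standard error 0.0732, edgeR adjusted p 0.0138), and dropping GFP B or GFP C gave an adjusted p of 0.0679 or 0.0597. Rims2 had 765, 780.4 and 837 CPM in Gas5 A, B and C, against 798, 796 and 758 CPM in GFP A, B and C, and the groups overlapped (log2 fold change 0.02, standard error 0.0588, edgeR adjusted p 0.892). Rims3, a short RIM, had 81.8, 73.6 and 72.8 CPM in Gas5 A, B and C, against 71.5, 71.5 and 69.1 CPM in GFP A, B and C. Its Gas5 libraries were above the GFP libraries by little (log2 fold change 0.11, standard error 0.0548, edgeR adjusted p 0.310). The ratio of Rims2 to Rims1 came to 38.2, 32.5 and 36.1 in Gas5 A, B and C, against 25.1, 25.8 and 25.4 in GFP A, B and C (log2 difference 0.48, exact permutation p = 0.1), so Rims1 was lower relative to its paralog in each library.

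The large scaffolds did not pass the test. Bsn, bassoon, had 367, 494 and 457 CPM in Gas5 A, B and C, against 547, 606 and 611 CPM in GFP A, B and C. The groups did not overlap, and Gas5 A lay lowest (log2 fold change -0.42, standard error 0.105, edgeR adjusted p 0.0562). Bsn was called lower in 5 of the 15 alternatives, DESeq2 among them. Its relative Pclo, piccolo, had 457, 482 and 526 CPM in Gas5 A, B and C, against 542, 521 and 519.7 CPM in GFP A, B and C, where Gas5 C lay within the GFP range (adjusted p 0.352). Erc2, an active zone scaffold of the ELKS family, had 1399, 1884 and 1504 CPM in Gas5 A, B and C, against 1632, 1911 and 1897 CPM in GFP A, B and C, and Gas5 B lay within the GFP range (adjusted p 0.410).

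Rab3 GTPases sit on vesicles and recruit RIM and rabphilin. Rab3a and Rab3c fell, beside 3.96% of all genes called lower, and Rab3b had a negative value that did not pass. Rab3a, the main brain form, had 22.1, 22.5 and 21.0 CPM in Gas5 A, B and C, against 27.3, 27.7 and 24.6 CPM in GFP A, B and C (1.21-fold lower, log2 fold change -0.28, standard error 0.0630, edgeR adjusted p 0.0417). Rab3c had 358, 343 and 424 CPM in Gas5 A, B and C, against 463, 479.9 and 478 CPM in GFP A, B and C (1.26-fold lower, log2 fold change -0.34, standard error 0.0791, edgeR adjusted p 0.0473). Gas5 and GFP libraries did not overlap for either gene. Both calls were close to the threshold, with adjusted p between 0.0544 and 0.1695 for Rab3a on leaving out any 1 of the 6 libraries, and between 0.0777 and 0.178 for Rab3c on leaving out any but Gas5 C. Both calls were also lost under upper quartile scaling, and that of Rab3c with the span trend removed. Rab3b had 18.9, 22.0 and 29.0 CPM in Gas5 A, B and C, against 33.7, 33.9 and 28.9 CPM in GFP A, B and C. Gas5 C reached the lowest GFP library (adjusted p 0.0973). The cortical marker mean, 2.81 at most in Gas5 tissue and 3.70 at least in GFP tissue, was lower too. So were those of general neuron and oligodendrocyte markers, and the part of these lists was not tested.

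On the vesicle membrane, Sv2b, Syp and Sv2a fell, beside 3.96% of all genes called lower, and Sv2c was not called. SV2 proteins are transporter-like glycoproteins of the vesicle, of which Sv2b is enriched at many glutamatergic terminals and Sv2c is concentrated in the basal ganglia. Sv2b had 179.5, 227 and 209 CPM in Gas5 A, B and C, against 263, 319 and 347 CPM in GFP A, B and C. The decrease was 1.51-fold (log2 fold change -0.59, standard error 0.114, edgeR adjusted p 0.0251), not called when Gas5 C (adjusted p 0.0564), GFP B (0.1096) or GFP C (0.113) was dropped. Sv2a, the form present at most terminals, had 194, 202 and 216 CPM in Gas5 A, B and C, against 239.7, 236 and 242 CPM in GFP A, B and C. It was 1.175-fold lower (log2 fold change -0.23, standard error 0.0523, edgeR adjusted p 0.0417), and dropping any library but Gas5 C ended the call (adjusted p between 0.0666 and 0.163), as did upper quartile scaling. Sv2c had 314, 522 and 371 CPM in Gas5 A, B and C, against 348, 362 and 357 CPM in GFP A, B and C. Gas5 B stood far above the other 5 libraries and Gas5 A was the lowest of all (log2 fold change 0.18, standard error 0.157, edgeR adjusted p 0.563), and without Gas5 B the log2 fold change was -0.06. Syp, synaptophysin, an abundant vesicle membrane protein, had 96.7, 109.6 and 101 CPM in Gas5 A, B and C, against 126, 126 and 129 CPM in GFP A, B and C (1.24-fold lower, log2 fold change -0.31, standard error 0.0539, edgeR adjusted p 0.0183). Its adjusted p was 0.0876 when GFP B was dropped and 0.0984 when GFP C was. The ratio of Sv2c to Sv2b came to 1.75, 2.30 and 1.77 in Gas5 A, B and C, against 1.33, 1.14 and 1.03 in GFP A, B and C (log2 difference 0.73, exact permutation p = 0.1). Slc17a7, a vesicle protein of cortical glutamatergic neurons, was lower in the same libraries (log2 fold change -3.08, standard error 0.542, edgeR adjusted p 0.0189). General neuron and oligodendrocyte marker means were lower too, and the part of any marker in these decreases was not tested.

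**Figure D4:**
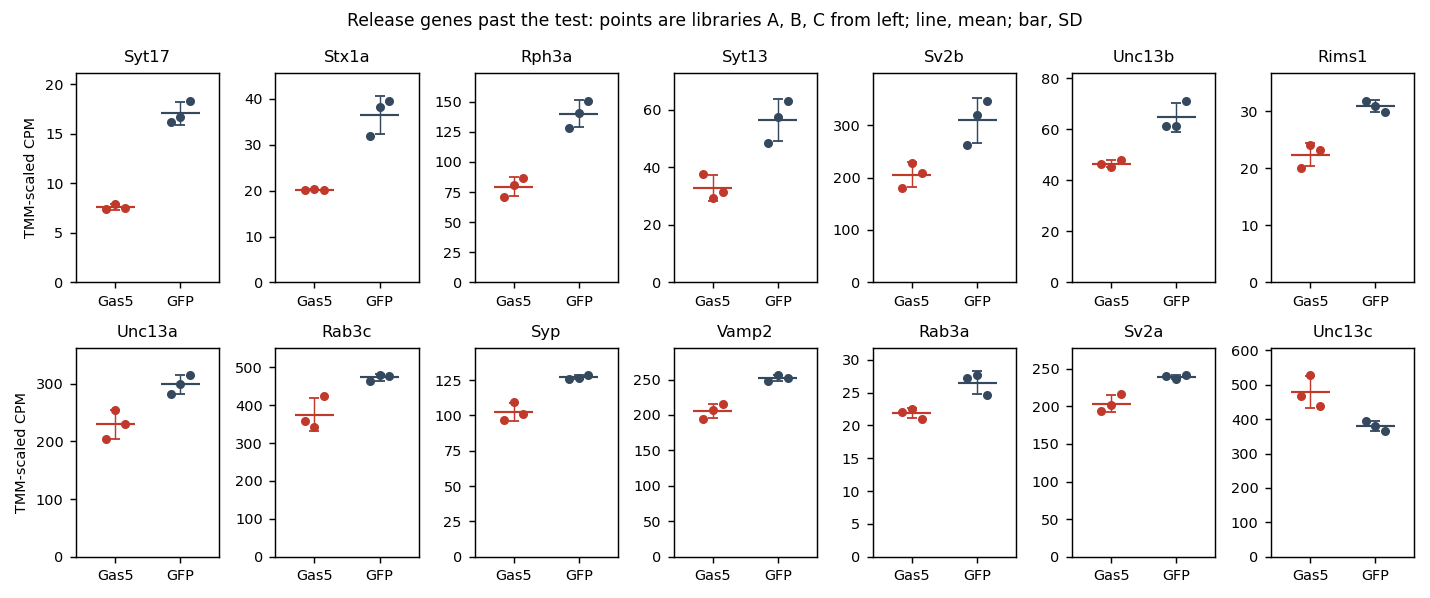
TMM-scaled CPM of the 14 release genes past the test, ordered by log2 fold change from Syt17 to Unc13c, with libraries A, B and C as points from the left, Gas5 before GFP, lines at the mean and bars of 1 SD (n = 3). Axes start at 0, and in all 14 panels the Gas5 and GFP libraries do not overlap. The 14 genes were chosen by the test on these same libraries, so the lack of overlap adds no support to the calls.

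None of the 3 synapsins, which tie vesicles into the reserve pool, was called. Syn1 had 124, 152 and 136 CPM in Gas5 A, B and C, against 163, 171 and 177 CPM in GFP A, B and C. All Gas5 libraries were lower, and the test was missed narrowly (log2 fold change -0.31, standard error 0.0754, edgeR adjusted p 0.0527). Syn2 had 379, 420.4 and 390.2 CPM in Gas5 A, B and C, against 378, 373 and 382 CPM in GFP A, B and C (log2 fold change 0.07, standard error 0.0543, edgeR adjusted p 0.497). Syn3 had 187, 231 and 187 CPM in Gas5 A, B and C, against 177, 192 and 189 CPM in GFP A, B and C (log2 fold change 0.12, standard error 0.0848, edgeR adjusted p 0.469). For both the groups overlapped. The ratio of Syn2 to Syn1 came to 3.07, 2.76 and 2.87 in Gas5 A, B and C, against 2.32, 2.18 and 2.16 in GFP A, B and C (log2 difference 0.38, exact permutation p = 0.1). Syn2 and Syn3 share 22.3% and 16.0% of their spans with other genes, among them Timp4 and Timp3. Syn1 was called lower under RLE scaling, without the expression filter, with DESeq2, with robust dispersion, with the replicate block, with the span trend removed and without Gas5 B.

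The Syn1 promoter is shown because it was the other member holding TTCAGCACC, and the one member of the 31 with the cyclic AMP response element TGACGTCA, found in 1.79% of all promoters. Both are in capitals.

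Syn1, chrX:20920869-20921168, minus strand: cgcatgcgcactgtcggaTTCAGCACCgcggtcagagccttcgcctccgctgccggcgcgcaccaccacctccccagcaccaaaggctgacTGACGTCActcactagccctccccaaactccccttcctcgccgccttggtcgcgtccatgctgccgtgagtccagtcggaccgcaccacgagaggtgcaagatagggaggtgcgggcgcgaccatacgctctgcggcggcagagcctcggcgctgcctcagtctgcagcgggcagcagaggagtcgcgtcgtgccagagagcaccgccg

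Dnm1, the neuronal dynamin that cuts vesicles from the membrane during retrieval, had 362, 391 and 362 CPM in Gas5 A, B and C, against 403, 433 and 431 CPM in GFP A, B and C. All Gas5 libraries were below the GFP libraries, and the difference did not pass the test (log2 fold change -0.18, standard error 0.0566, edgeR adjusted p 0.104).

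Levels differed widely between members. Per kb of gene span, over both groups, Vamp2 stood highest at 58.7 CPM per kb, followed by Cplx2 at 48.9, Sv2a at 15.4, Syt11 at 10.2 and Snap25 at 10.1. The lowest were Rims1 at 0.0513, Syt9 at 0.112 and Syt17 at 0.183 CPM per kb. Counts cover introns, and exons make up under 10% of the span in 24 members, but 97.8% in Vamp2. The lowest exon share was that of Erc2 (chr14:27622428-28478537, GRCm38), at 1.14%, and a level per kb of span is not a transcript number. The order of Syt11 and Snap25, neighbours at 10.2 and 10.1, turned between the groups, at 9.72 and 8.91 in the Gas5 group and 10.8 and 11.4 in the GFP group. Across the 43 genes, which share the same 6 libraries, the log2 fold change had a Spearman rho of 0.07 with span and 0.35 with mean CPM, given as descriptions. Of 10 members over 200 kb 3 were called lower and 1 higher, and of the other 33 members 10 were lower. The members lie on 18 chromosomes.

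**Figure D5:**
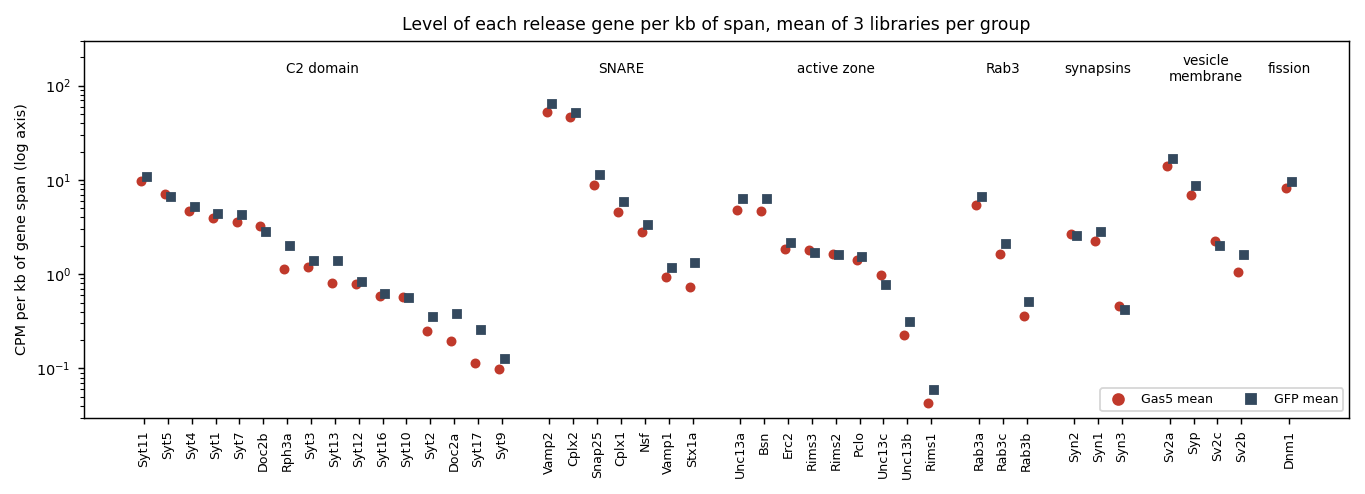
Mean CPM per kb of gene span (log axis) of each release gene, by role and in descending order, with red circles for the Gas5 mean and dark squares for the GFP mean (n = 3 libraries each). The range runs from Rims1 at 0.0431 and 0.0594 to Vamp2 at 52.8 and 64.7 CPM per kb in Gas5 and GFP libraries.

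Other genes of the vesicle cycle came from a separate list, of which 70 were found in the tables. Of 64 tested, 14 were lower (21.9%) and 1 higher, with a median log2 fold change of -0.09, beside 3.96% lower and a median of 0.02 over all genes. Vamp3, Syngr2 and Itsn1 were at 0 and not tested, since each lies wholly within another listed gene. The largest decrease was in Cplx3, a complexin of restricted expression, with 0.302, 1.122 and 1.497 CPM in Gas5 A, B and C, against 4.17, 7.37 and 7.90 CPM in GFP A, B and C (log2 fold change -2.73, standard error 0.429, edgeR adjusted p 0.0135). Cadps2 and Cadps encode CAPS proteins, which prime dense-core vesicles. Cadps2 had 43.6, 30.1 and 43.9 CPM in Gas5 A, B and C, against 74.3, 93.5 and 97.0 CPM in GFP A, B and C (log2 fold change -1.17, standard error 0.151, edgeR adjusted p 0.00809), and Cadps had 367, 418 and 443 CPM in Gas5 A, B and C, against 557, 593 and 605 CPM in GFP A, B and C (log2 fold change -0.51, standard error 0.0759, edgeR adjusted p 0.0115). Sncb, beta-synuclein, had 34.7, 35.9 and 38.3 CPM in Gas5 A, B and C, against 58.3, 61.1 and 61.8 CPM in GFP A, B and C (log2 fold change -0.74, standard error 0.0521, edgeR adjusted p 0.00294). In these 4 genes no Gas5 library reached a GFP library, but they were chosen as the largest decreases past the threshold, so this adds no support. Of the 64 tested, 27 were lower without overlap and 4 higher without overlap, beside 13.9% and 13.8% of all genes. Baiap3, a relative of the Unc13 genes, was the 1 called higher. It had 98.8, 39.0 and 51.9 CPM in Gas5 A, B and C, against 31.3, 22.1 and 18.0 CPM in GFP A, B and C (log2 fold change 1.398, standard error 0.331, edgeR adjusted p 0.0482). Gas5 A stood highest, and the call was lost with limma-voom, robust dispersion, a filter of 1 CPM, and on dropping any library but Gas5 B (adjusted p between 0.0501 and 0.182 over these).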

How the data were processed

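Values are raw counts per gene as deposited by the authors, one table per library in whole numbers. Build GRCm38.p6, STAR 2.7.0 and, for counting, featureCounts 1.5.0-p3 appear in the submitters' processing notes, beside edgeR 3.20.9, Trim Galore 0.4.4 and bcl2fastq 1.8.4. Annotation release and strand setting: not given in the sources used here. Lengths in the tables are whole gene spans in all but 17 of 54658 rows, so intronic reads were counted over those spans. Of 12735 rows lying within another listed gene 0 had a count, so reads in overlaps are absent, and antisense reads cannot be told apart from a gene's own. Member coordinates matched GENCODE M21 for 42 of 43.

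Counts were analysed with edgeR 4.0.16 in R 4.3.3: default expression filter (17563 genes kept), TMM scaling, quasi-likelihood F-test of Gas5 minus GFP over all 6 libraries, 2-sided, Benjamini-Hochberg adjustment over all genes, threshold 0.05. A standard error is the size of the log2 fold change over the root of its F value. Within a group, pairs of libraries differed beyond sampling noise (chi-square over its degrees of freedom, 5.13 to 25.2). Alternatives were DESeq2 1.42.0, limma-voom (limma 3.58.1), RLE or upper quartile scaling, no filter or 1 CPM in at least 3 libraries, a replicate block by letter, robust dispersion, removal of the trend with span, and leaving out each library. The edgeR fit was also run on simulated counts, with the same dispersion in every gene and changes larger than most of those called here. That run therefore does not test calls of small changes.

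Members, lists and motifs were chosen with earlier results of these data known. Values per library are given for members past the threshold, the 2 most abundant per kb and the one of smallest p in each role. Of other vesicle cycle genes, the 4 largest changes past the threshold in each direction are given. Further members were chosen after their values were seen.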

Additional observations from a re-analysis of the deposited data

How the results depend on the processing

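Against 13 lower and 1 higher members, the count of lower members was 22 without the expression filter and 24 with DESeq2, and 10 to 18 under the 7 other settings that keep all libraries. Calls over all genes rose as well, from 695 of 17563 lower to 1002 of 28611 without the filter and 996 of 17563 with DESeq2. Under the 7 other settings between 586 and 928 of all genes were lower. The count of higher members was 2 under upper quartile scaling, without the filter, with the filter of 1 CPM, with DESeq2 and with robust dispersion, the second gene being Doc2b in each. Leaving out 1 library gave between 4 and 15 lower and between 0 and 1 higher. Each of these fits has 5 libraries, and the lowest counts came from those without GFP B and without GFP C. Over all genes, too, the fits without GFP B and without GFP C gave the fewest lower calls, 111 of 17909 and 101 of 17873.

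Over 645 values of single members, 554 kept their direction and side of the threshold, 39 lost a call, 46 gained one and 6 changed sign. Log2 fold changes that changed sign were Syt16 (0.0082 with the span trend removed) and, on leaving out 1 library, Syt10 (between -0.1109 and 0.1876), Rims2 (between -0.03126 and 0.03853) and Sv2c (between -0.05636 and 0.32), none of them called. The cause was not tested. Of the 29 members not called, 15 were called in no alternative and 14 in at least 1. Doc2b was called higher in 6 of the 15 alternatives, and the others were called lower. Syn1 was called in 7, Snap25 and Bsn in 5, Syt2 and Nsf in 4, and Vamp1, Cplx1 and Rab3b in 3. Doc2a was called in 2, and Syt7, Syt9, Syt11 and Dnm1 in 1.

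With the replicate block 18 members were lower and 1 higher, beside 928 lower and 510 higher of all 17563 genes tested. Deviations of same-letter libraries had correlations of 0.112, 0.133 and -0.0519 for A, B and C. Gas5 A and Gas5 B correlated best with the GFP library of their own letter, and Gas5 C with GFP A (0.057). Whether the letters pair samples is not settled by these values, and the main fit did not pair them. With 3 libraries a group, the smallest decrease called was 1.175-fold.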

Other observations

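Rims1 had few reads for a span of 519.7 kb. It was counted 864, 1028 and 898 times in the Gas5 libraries A to C, against 1771, 1191 and 948 times in the GFP libraries A to C. Its level was 0.0513 CPM per kb of span, beside 1.62 for its paralog Rims2. Other listed genes cover 0.154% of Rims1.

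Gad2, which makes GABA, was the 1 gene called higher among the interneuron markers, although medium spiny neurons express it too. Of the 10 markers 6 had a negative value, with a median log2 fold change of -0.10, and Vip was called lower (log2 fold change -1.47, edgeR adjusted p 0.0218). Gad2 had 549, 622 and 554 CPM in Gas5 A, B and C, against 497, 444 and 449.5 CPM in GFP A, B and C (log2 fold change 0.31, standard error 0.0709, edgeR adjusted p 0.0435). Gad1, another GABA-synthesising enzyme, did not pass (log2 fold change 0.03, adjusted p 0.827).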
